A study of Equus caballus with 32 samples.

Results

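The genes described here are 9 members of the BCL2 family, the proteins that decide whether a cell keeps its mitochondria intact or dies by apoptosis, measured in the blood of mares after weaning. Of the 9, BCL2, MCL1, BCL2L1 and BCL2A1 protect cells, and BCL2L11, BAX, BAK1, BID and BAD kill them. Members were taken as the non-control array probes whose gene name in the scanner files is a listed symbol, which gave 18 of 43987 probes, for 6 of the 9 genes and of 15070 gene symbols on the array. BAX, BAK1 and BCL2L11 had no probe under their symbol. The free-text descriptions in the same files name 8 further probes as these 3 genes, and those probes are reported with that source. Another 5 probes were assigned to MCL1 and BAK1 only through their transcript accession, and they stand in the closing section.

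The groups were 16 Welsh Pony mares weaned progressively and 16 weaned brutally, and each mare gave 1 sample of venous whole blood 30 days after weaning. All were female by the labels, which give neither ages nor what either weaning procedure consisted of, and no group without weaning was included. RNA was stabilised in the blood tube, labelled with the dye Cy3 and hybridised to single-colour Agilent horse arrays, 8 per slide on 4 slides, and every slide carried 4 progressive and 4 brutal mares. Each level is log2 of the signal minus the array's own 75th percentile, so 0 marks that percentile, and a level cannot be set against that of another probe.

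In the textbook account, BCL2 and its protecting relatives sit on the outer mitochondrial membrane and hold BAX and BAK1 in check. When these are released they form pores, cytochrome c leaves the mitochondria and caspases are switched on. BIM (the product of BCL2L11), BID and BAD are BH3-only proteins, which carry a stress or death signal to the protecting members or to the pore formers. Blood depends on this balance because neutrophils die by apoptosis within days of leaving the marrow, and because lymphocytes that lose their survival cytokines die the same way.

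The probes are 60 bases long, and their sequences show what the arrays could see of each gene. The 10 BID probes start within 4 bases of each other on chromosome 6 of the assembly EquCab1 and belong to 2 transcripts, 5 probes each. One form reads straight through chr6:27722084-27722143 on the + strand, and the other covers chr6:27722084-27722495 and so leaves out bases between. The brightest tested probe of the contiguous form and the spanning probe with the same start are shown, with the 3 positions at which they differ in capitals, after 55 shared bases.
BID, contiguous form: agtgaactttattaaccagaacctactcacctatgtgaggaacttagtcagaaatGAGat
BID, spanning form: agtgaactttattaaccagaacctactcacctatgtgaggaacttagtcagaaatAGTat
With 57 of 60 bases in common, these probes can bind the same molecules and are not separate measurements of the 2 forms. The probes of the other members whose results are given by a single target stretch follow, with none of their letters set apart.
BCL2, chr8:72903395-72903454, - strand: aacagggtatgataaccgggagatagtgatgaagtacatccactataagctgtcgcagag
BCL2L1, chr22:22722990-22723049, - strand: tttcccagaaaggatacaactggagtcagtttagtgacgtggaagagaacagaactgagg
BCL2L11, chr15:10824826-10837681, + strand: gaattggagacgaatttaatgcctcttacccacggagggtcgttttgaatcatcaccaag
BAD, chr12:14940469-14940528, - strand: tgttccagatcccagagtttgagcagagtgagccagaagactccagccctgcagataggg
The BCL2L11 probe covers 12856 bases of the assembly with 60, so it crosses a stretch that is absent from the transcript. Its 5 probes are shifted by single bases and share sequence. Every one of the sequences shown reads without a stop codon in at least 1 frame. The annotation of this assembly was not used here, so exons and untranslated regions are not named.

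BCL2L1 and BAX, of the 9 genes, gave no usable level in blood. BCL2L1, which encodes BCL-XL, the protector known in mice from platelets and red cell precursors, stood well above background on 0 of 16 arrays after progressive weaning and on 1 of 16 after brutal weaning. BAX, a pore former, did so on 1 of 16 and 1 of 16. Both probes were left out of the tests, and "not well above background" is all that can be said of them here. Probes of the other 7 members stood well above background on all 32 arrays.

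None of the 7 measured members differed between progressively and brutally weaned mares past the threshold. At an adjusted p under 0.05, limma called 0 of the 24 tested probes that the files name as members, against 0.0% of all 26368 tested probes. At an unadjusted p under 0.05 it also called 0 of the 24, against 2.75% of all probes (726), of which 1.88% of all probes were lower and 0.872% higher after progressive weaning. The smallest adjusted p over all probes was 0.996, and the adjusted p of each difference given below from this fit, not from an alternative, is at least that. In data simulated from these arrays the same fit recovered 64% of probes changed by 0.5 and 95% of those changed by 1 on the log2 scale, over 26368 probes. There each probe varied independently of the others, and 100 probes were changed by each amount. The real probes vary together and none was called, so these shares are not the power to detect a change in a member. Blood is a mixture, and in these bulk samples fewer cells of a type and less RNA per cell cannot be told apart.

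Among the protecting members, BCL2 ran from -3.81 through a median of -3.52 to -2.93 after progressive weaning, and from -3.97 through -3.26 to -2.48 after brutal weaning. All progressive values lay within the range of the brutal ones, and the highest mare, brutal 8, stood apart from the next at -2.93. The difference, progressive minus brutal, was -0.12 (SE 0.11, unadjusted p = 0.299, limma), a ratio of 0.923 with a 95% interval from 0.790 to 1.08. BCL2 is the founding member of the family and is known as the protector of resting lymphocytes.

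MCL1, a short-lived protector on which neutrophils depend in mice, ran from 3.94 through 4.56 to 4.87 after progressive weaning, and from 4.07 through 4.57 to 4.93 after brutal weaning. Its groups overlapped over nearly their whole range, and the difference of means was -0.04 (SE 0.10, p = 0.650), which is 0.970-fold (0.848 to 1.11). The other 2 probes under its symbol lie 30 and 60 bases away and tracked it with r of 0.96 and 0.98 over the mares. They differed by -0.07 each. The direction of MCL1 changed with the setting, to 0.0040 with quantile normalisation, 0.035 without slide 4 and 0.087 with blood cell scores as covariates.

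BCL2A1, a protector that NF-kB induces in activated leukocytes, ran from -2.31 through -1.63 to -1.12 after progressive weaning, and from -2.15 through -1.84 to -0.44 after brutal weaning. The mare brutal 8, also the highest for BCL2, lay far above the next at -1.08. The difference was -0.02 (SE 0.15, p = 0.880), or 0.985-fold (0.801 to 1.21). The second BCL2A1 probe differed by 0.11 (SE 0.15), so the sign depends on the probe, and the r between the 2 probes was 0.79 over the mares although they share no stretch of 15 bases.

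**Figure D1:**
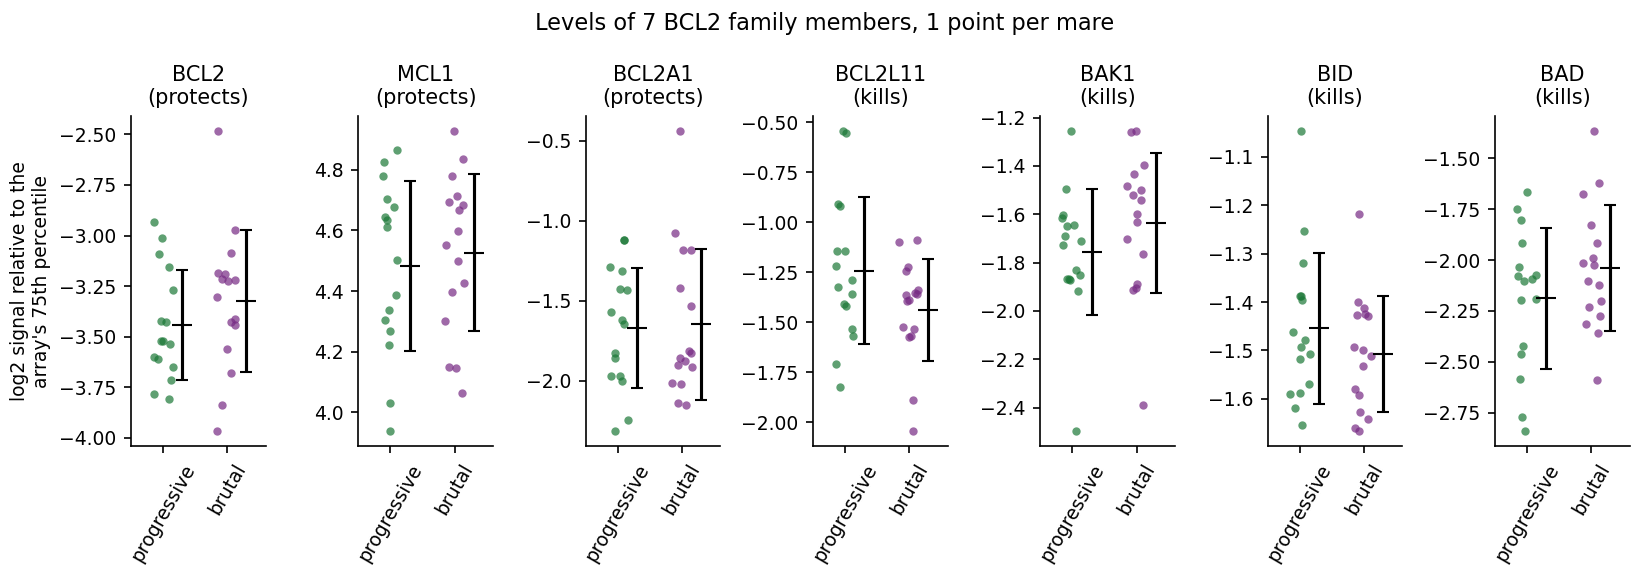
Level of each measured member in each mare (y axis: log2 signal minus that of the array's 75th percentile, a separate scale per gene), progressive left and brutal right, with the mean and SD as a bar (n = 16 each). The groups overlap for all 7 members, and brutal 8 is the highest point for BCL2 (-2.48) and BCL2A1 (-0.44).

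Of the killing members, BCL2L11 had the smallest p. BIM, its product, is known in mice for removing lymphocytes that lack cytokines or bind self. The brightest of its probes ran from -1.82 through -1.31 to -0.55 after progressive weaning, and from -2.04 through -1.38 to -1.09 after brutal weaning. Progressive mares held the 2 highest values and brutal mares the 2 lowest, with overlap between -1.82 and -1.09. The difference was 0.19 (SE 0.11, p = 0.0870, adjusted p = 0.996), or 1.14-fold (0.979 to 1.34), and it was above 0 within 4 of 4 slides. A permutation of the groups within slides gave p = 0.0251 with no adjustment over the 7 members, and from 0.220 to 0.889 for the other members. The other 4 BCL2L11 probes, which share nearly all bases with the brightest, differed by 0.09 to 0.12. Their r with it ran from 0.59 to 0.79, so the larger value belongs to 1 probe. As the mean of all 5 probes the difference was 0.12 (limma, p = 0.241).

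BAK1, a pore former, ran from -2.50 through -1.72 to -1.26 after progressive weaning, and from -2.39 through -1.57 to -1.26 after brutal weaning. In each group 1 mare lay well below the others, progressive 1 and brutal 4. The difference was -0.12 (SE 0.10, p = 0.230), or 0.921-fold (0.803 to 1.06), below 0 within 4 of 4 slides. Its second described probe, 2 bases away, differed by -0.16.

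BID, which caspase 8 cuts so that its fragment carries a death receptor signal to the mitochondria, was the most even member. It ran from -1.65 through -1.49 to -1.05 after progressive weaning, and from -1.67 through -1.51 to -1.22 after brutal weaning. Its SD over all 32 mares was 0.139 on the log2 scale, and 2.90% of tested probes had a smaller one. For all 10 probes the SD lay between 0.139 and 0.176, and at most 9.58% of tested probes varied less. Between the highest and the lowest mare the signal differed 1.54-fold, against 2.79-fold for BCL2 and 3.67-fold for BCL2A1. The difference between groups was 0.05 (SE 0.06, p = 0.348), and for the 10 probes it lay between 0.04 and 0.11. Their 95% intervals together spanned ratios from 0.946 to 1.18.

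The 2 sets of BID probes moved together. Over the mares, the mean of the 5 spanning probes and the mean of the 5 contiguous probes had r = 0.95. The spanning mean minus the contiguous mean was -0.09 ± 0.04 (SD, n = 16) after progressive weaning and -0.08 ± 0.06 (SD, n = 16) after brutal weaning, a difference of -0.0031 (permutation p = 0.854). With 57 of 60 bases the same in the probes shown, both sets can bind the same molecules. These values therefore cannot show whether the 2 forms themselves move together or apart.

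BAD, a BH3-only protein that survival kinases keep inactive by phosphorylation, ran from -2.84 through -2.10 to -1.67 after progressive weaning, and from -2.59 through -2.06 to -1.37 after brutal weaning. The difference was -0.15 (SE 0.11, p = 0.208), or 0.903-fold (0.769 to 1.06), below 0 within 4 of 4 slides. The scaled level of BAD and the brightness of the array, log2 of its 75th-percentile signal, had r = -0.79. For 2.99% of tested probes r was lower. That brightness is subtracted to give the level, so a probe whose signal does not follow it gets a negative r. The unscaled BAD signal had r = -0.08 with that brightness. Arrays of progressive mares averaged 8.99 ± 0.25 (SD, n = 16) and those of brutal mares 8.89 ± 0.24 (SD, n = 16) for log2 of the 75th-percentile signal. With it as a term in the fit, an alternative added after seeing the data, the difference of BAD was -0.04 (p = 0.574).

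**Figure D2:**
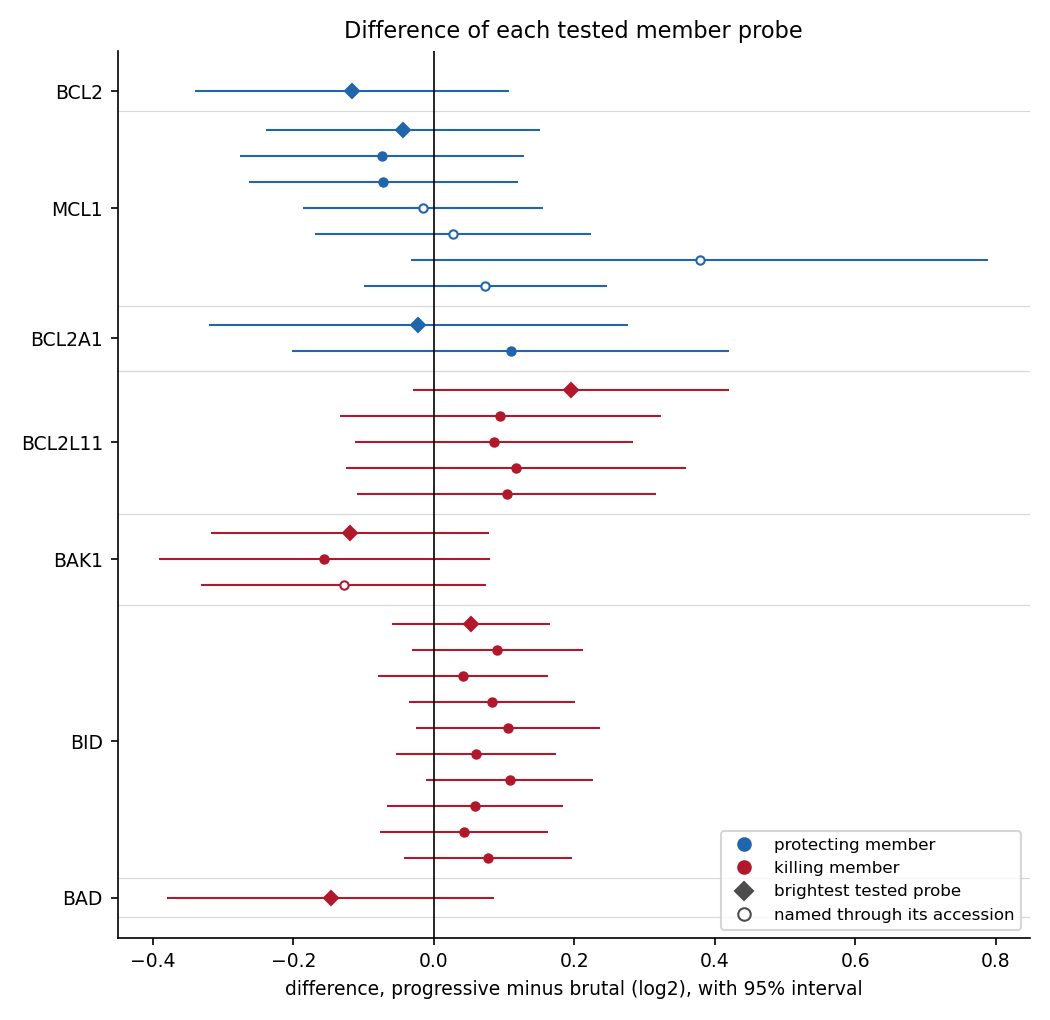
Difference of each tested member probe, progressive minus brutal, on the log2 scale (x axis), with its 95% interval from limma, for protecting members (blue) and killing members (red). All 29 intervals cross 0, the BID intervals are the narrowest, and the shown BCL2L11 probe (0.19) lies above its 4 overlapping probes.

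The shown probes differed by -0.12 to -0.02 among the protecting members and by -0.15 to 0.19 among the killing members. The median difference was -0.04 over BCL2, MCL1 and BCL2A1. It was -0.05 over BID (0.05) and BAD (-0.15), the killing members with a tested probe under their symbol, which differed in opposite directions. With BAK1 and BCL2L11 added, as planned, the median of the killers was -0.03. The medians of the protectors and of BID and BAD took opposite signs with blood cell scores as covariates (-0.05 and 0.01). They also did with the 75th-percentile signal as a term (-0.01 and 0.02). They are descriptions over few genes, with no test. Over all 9391 genes tested it was -0.02, and 58.2% of those genes were lower after progressive weaning. By probes, 8 of the 24 were lower and 16 higher, against 55.7% lower over all tested probes. Of the 16 higher, 10 are the overlapping BID probes and 5 the overlapping BCL2L11 probes.

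Within single slides of 4 against 4 mares, 3 members kept 1 sign throughout. BCL2L11 was higher after progressive weaning by 0.29, 0.07, 0.36 and 0.05 on slides 1 to 4. BAK1 differed by -0.17, -0.20, -0.01 and -0.10 and BAD by -0.05, -0.16, -0.13 and -0.25. BCL2 was lower on 3 slides and at 0.06 on slide 4, while MCL1, BCL2A1 and BID were higher on 2 slides and lower on 2. The arrays of a slide stand in 2 rows, with 8 arrays of each group in each row over the 4 slides. For BAD the difference was 0.10 in the first row and -0.39 in the second, and for BCL2A1 it was 0.29 and -0.34. Spots well above background made up 59.8 to 66.0% on arrays of the first row and 53.0 to 59.6% on those of the second. Whether the differences between groups vary with the row was not tested.

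**Figure D3:**
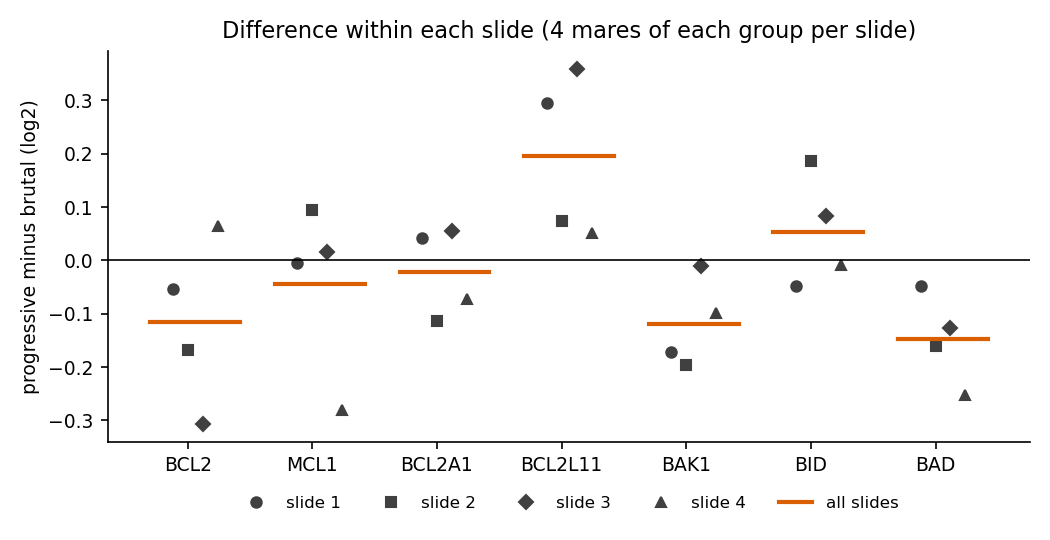
Difference of each member within each slide (symbols, 4 mares of each group) and over all slides (orange line), progressive minus brutal on the log2 scale. BCL2L11 lies above 0 and BAK1 and BAD below 0 on all 4 slides, and the spread between slides is as wide as most of the differences.

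The genes around the family did not differ past the threshold either. Some had a smaller unadjusted p than any shown member. The smallest was 0.0671 for BAG1 (limma), against 0.0870 for BCL2L11. Over all genes tested, 58.2% were lower after progressive weaning, which the counts below can be set against. None of the 5 pathway lists had a gene at an adjusted p, or at an unadjusted p, under 0.05. Another list held 18 genes, other BCL2 family members together with partners of the family such as BAG1. Of its 13 tested genes, 6 were higher and 7 lower after progressive weaning, with a median difference of -0.04. BBC3 (the BH3-only protein PUMA, induced by p53) averaged 3.78 ± 0.33 after progressive and 3.96 ± 0.25 after brutal weaning (SD, n = 16 each), a difference of -0.19 (SE 0.10). BAG1, a co-chaperone that binds BCL2, differed by -0.18 (SE 0.10).

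Downstream, 7 of 17 tested genes of the apoptosome and caspases were higher and 10 lower, with a median of -0.01. The smallest p values there belonged to DIABLO, which frees caspases from their inhibitors (-0.09, SE 0.08), and PARP1, a nuclear caspase target (0.15, SE 0.15). Of 10 inhibitors of apoptosis, 4 were higher and 6 lower, with a median of -0.02, BIRC6 at 0.16 (SE 0.11) and BIRC7 at -0.21 (SE 0.16).

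Upstream, 2 of 10 tested death receptors and adaptors were higher and 8 lower, against 58.2% lower over all genes tested, with a median of -0.07. TNFRSF1A, the main receptor for TNF, averaged 3.39 ± 0.42 after progressive and 3.62 ± 0.30 after brutal weaning (SD, n = 16 each), a difference of -0.23 (SE 0.13). FASLG, the ligand with which cytotoxic lymphocytes engage FAS, differed by -0.18 (SE 0.12). Of 19 tested upstream regulators, 10 were higher and 9 lower, with a median of 0.0012, RELA (an NF-kB subunit) at -0.11 (SE 0.06) and AKT1 (the kinase that phosphorylates BAD) at -0.12 (SE 0.07). Every adjusted p of these 10 named genes was 0.996.

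Between mares, regardless of weaning, some members varied with each other or with blood cell markers. Levels were correlated over the 32 mares in 21 pairs of members and with 9 blood cell marker scores, 63 relations, with permutation p values (two-sided) adjusted by Benjamini-Hochberg within each of the 2 families. A marker score is the mean z value of the tested markers of a cell type. All these values come from the same arrays and share each array's scaling. Of the 21 pairs 2 passed, both positive, and of the 63 relations 8 passed, 7 positive and 1 negative. The share of all tested genes with relations as strong was not computed. The counts therefore do not show anything particular to this family.

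Markers of the main blood cells were detected in part. A marker was tested only when well above background on at least 8 arrays of a group. Tested of those listed were 15 of 21 for neutrophils, 18 of 18 for T cells, 11 of 12 for B cells and 13 of 15 for NK and cytotoxic cells. The others were 11 of 12 for monocytes, 6 of 8 for dendritic cells, 8 of 22 for erythroid cells, 10 of 17 for platelets and 4 of 11 for eosinophils and basophils. Those well above background on all 32 arrays were 14 of 15 tested for neutrophils, 17 of 18 for T cells, 11 of 11 for B cells, 13 of 13 for NK and cytotoxic cells, 10 of 11 for monocytes, 6 of 6 for dendritic cells, 6 of 8 for erythroid cells, 6 of 10 for platelets and 2 of 4 for eosinophils and basophils. The summed marker signal of neutrophils ran from 120.5 to 549 times the 75th percentile after progressive and from 133.7 to 434 after brutal weaning. That of monocytes ran from 171.9 to 483 after progressive and from 179.1 to 449 after brutal weaning. Platelet markers were lower after progressive weaning in 9 of 10 genes, a difference of -0.43 in the score, neutrophil markers in 14 of 15 (-0.40) and erythroid markers in 6 of 8 (-0.40). The score differed by -0.27 for NK and cytotoxic cells, -0.14 for monocytes, -0.06 for eosinophils and basophils, 0.02 for T cells, 0.05 for B cells and 0.24 for dendritic cells. None of these score differences was tested. The neutrophil score ran from -1.43 to 1.24 after progressive and from -1.17 to 0.91 after brutal weaning. The platelet score ran from -1.33 to 0.79 and from -0.69 to 1.41. Over all genes tested 58.2% were lower, and the markers of a list are not independent of each other. With the neutrophil, T cell, erythroid and platelet scores as covariates, the differences of the members were -0.05 for BCL2, 0.09 for MCL1, -0.12 for BCL2A1, 0.16 for BCL2L11, -0.02 for BAK1, 0.09 for BID and -0.07 for BAD. The other scores were not used as covariates, and their part in these differences was not tested.

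MCL1 followed the neutrophil score over the mares, with r = 0.68 (rho = 0.61, permutation p = 2e-05, adjusted p = 0.00063, n = 32). Without the 2 mares farthest from the median score r was 0.62. The 4 lowest MCL1 levels belonged to mares with neutrophil scores between -1.43 and -0.63, while the next lowest, brutal 10 at 4.15, had a score of 0.79. The r was 0.85, 0.13, 0.10 and 0.85 within slides 1 to 4, so slides 2 and 3, with 8 mares each, showed little of it. It was 0.84 among progressive and 0.49 among brutal mares, a contrast that was not tested. MCL1 also followed the monocyte score (r = 0.58, rho = 0.53, permutation p = 0.00058, adjusted p = 0.00913), with 0.51 without the 2 farthest mares and 0.75, -0.18, 0.38 and 0.56 within the slides. The monocyte relation fell short with quantile normalisation (r = 0.45, permutation, adjusted p = 0.0831) and in the deposited log2 table (r = 0.44, adjusted p = 0.0836). The other probes under the symbol MCL1 had r of 0.66 and 0.71 with the neutrophil score and 0.55 and 0.59 with the monocyte score. The MCL1 probes named only by accession had lower r, 0.44 to 0.58 with the neutrophil score and 0.26 to 0.47 with the monocyte score.

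BAK1 followed the same lists. Its r was 0.71 with the monocyte score (rho = 0.63, permutation p = 1e-05, the smallest these permutations can give, adjusted p = 0.00063) and 0.60 with the neutrophil score (rho = 0.53, permutation p = 0.00027, adjusted p = 0.00567). Leaving out the 2 farthest mares gave 0.63 and 0.49. Within slides 1 to 4 the monocyte r was 0.87, 0.77, -0.16 and 0.63 and the neutrophil r 0.75, 0.94, -0.23 and 0.40, so neither relation held on slide 3. The neutrophil and monocyte scores themselves had r = 0.80, and these data do not tell which of them a member tracks.

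BCL2A1 ran the other way. Its r was 0.54 with the B cell score (rho = 0.55, permutation p = 0.0014, adjusted p = 0.0147) and -0.49 with the monocyte score (rho = -0.55, permutation p = 0.0043, adjusted p = 0.0339). Without the 2 farthest mares these were 0.63 and -0.45. Within slides 1 to 4 the B cell r was 0.85, 0.55, 0.19 and 0.68, and the monocyte r was -0.78, -0.51, -0.01 and -0.98. With the neutrophil score r was -0.41 (rho = -0.47, permutation p = 0.0198, adjusted p = 0.125), which did not pass. With the means of each slide and group removed it passed (r = -0.49, adjusted p = 0.0258), and so it did as the mean of both probes (r = -0.55, adjusted p = 0.00963). The second BCL2A1 probe had r of 0.44, -0.55 and -0.63 with the B cell, monocyte and neutrophil scores. B cell and monocyte scores had r = -0.53 with each other, and with normexp background correction the monocyte relation fell short (r = -0.42, adjusted p = 0.0687).

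BAD followed the NK and cytotoxic score (r = 0.55, rho = 0.61, permutation p = 0.00115, adjusted p = 0.0145) and the T cell score (r = 0.51, rho = 0.44, permutation p = 0.003, adjusted p = 0.027). Leaving out the 2 farthest mares gave 0.53 and 0.47. The NK and cytotoxic r was 0.93, 0.33, 0.66 and 0.39 within slides 1 to 4, and the T cell r was 0.54, -0.06, 0.77 and 0.78. Array brightness, which is subtracted from every level, was related to both sides of the first relation. The NK and cytotoxic score had r = -0.56 with log2 of the 75th-percentile signal. With that signal regressed out, the r fell to 0.21 for NK and cytotoxic cells (adjusted p = 0.653) and to 0.46 for T cells (adjusted p = 0.0632). By rank the T cell relation did not pass (rho = 0.44, adjusted p = 0.0735). Without progressive 16, the array with 851 outlier spots against at most 180 on any other, the T cell r was 0.41 (adjusted p = 0.159). Quantile normalisation, the deposited log2 table and the percentile over probes detected on all arrays ended both calls as well.

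**Figure D4:**
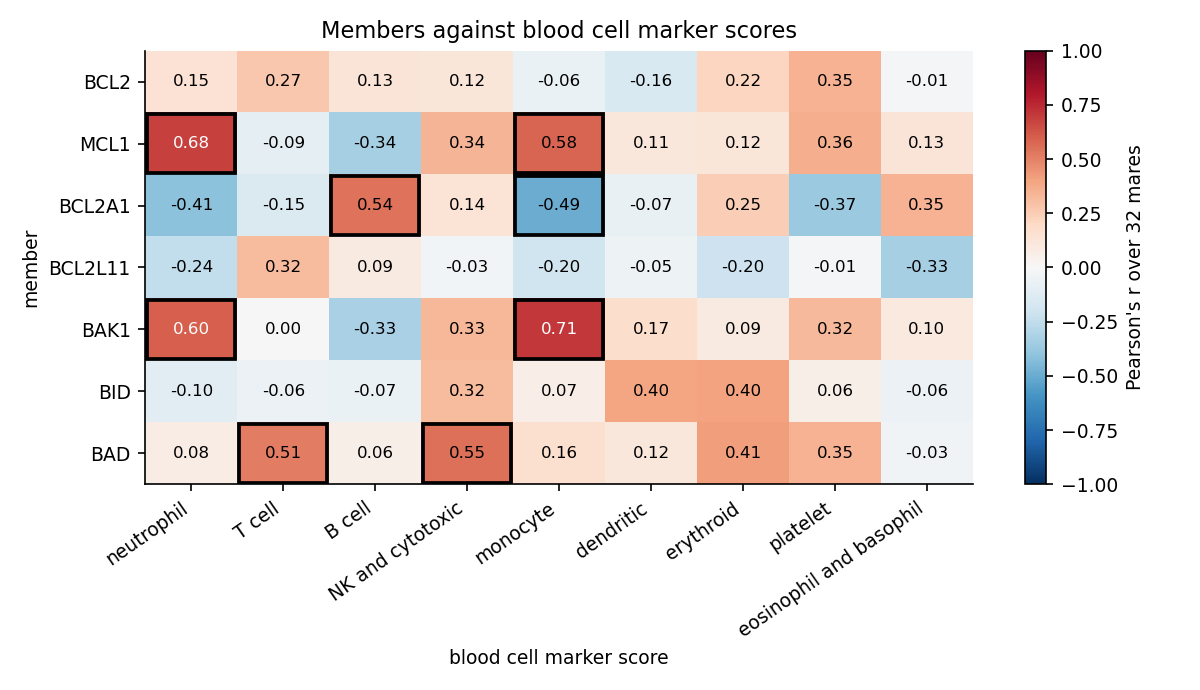
Pearson's r over 32 mares of each measured member (rows) with each blood cell marker score (columns), red positive and blue negative, with a black frame where the permutation p adjusted over the 63 relations was under 0.05. MCL1 and BAK1 are framed at neutrophil and monocyte, BCL2A1 at B cell and monocyte with opposite signs, and BAD at T cell and at NK and cytotoxic.

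BCL2, BCL2L11 and BID followed no marker list past the threshold by the plain Pearson's r. Their r lay between -0.16 and 0.35 for BCL2, between -0.33 and 0.32 for BCL2L11 and between -0.10 and 0.40 for BID, and the smallest adjusted p over these relations was 0.125. With the means of each slide and group removed, BID passed with the erythroid score (r = 0.54, permutation, adjusted p = 0.0115). BCL2L11 passed with the eosinophil and basophil score by rank (rho = -0.48, adjusted p = 0.0491) and as the mean of its probes (r = -0.49, adjusted p = 0.0239). The 5 BCL2L11 probes had r between 0.32 and 0.48 with the T cell score, and the shown probe had the lowest of these.

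Of the pairs of members, MCL1 and BAK1, a protector and a killer, varied together over the mares (r = 0.63, rho = 0.54, permutation p = 7e-05, adjusted p = 0.00147). The mare progressive 1 was the lowest for both, and without the 2 mares farthest in MCL1 r was 0.52. Within slides 1 to 4 it was 0.73, 0.13, 0.09 and 0.68. The pair fell short with quantile normalisation (r = 0.40, adjusted p = 0.151) and in the deposited log2 table (r = 0.36, adjusted p = 0.215). The neutrophil and monocyte scores moved with both genes, and their part in the pair was not tested.

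BAK1 and BAD, both killers, were the other pair (r = 0.58, rho = 0.65, permutation p = 0.0006, adjusted p = 0.0063), with 0.51 without the 2 farthest mares and 0.74, 0.19, 0.83 and 0.58 within the slides. With the 75th-percentile signal regressed out the r was 0.52 (adjusted p = 0.0261), and with the percentile taken over probes detected on all arrays it fell short (r = 0.47, adjusted p = 0.0710). The other 19 pairs had adjusted p values of at least 0.310.

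**Figure D5:**
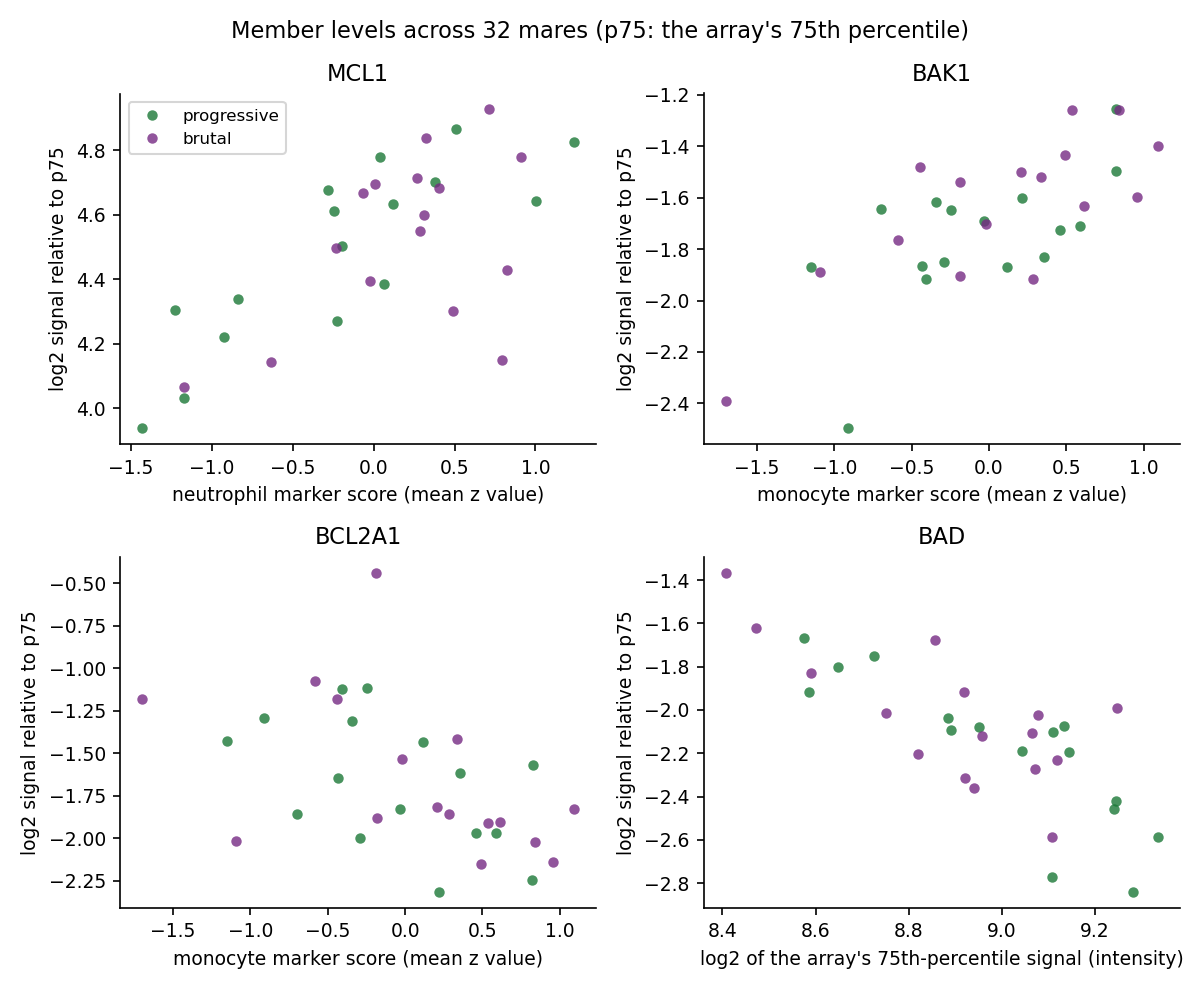
Levels of MCL1, BAK1, BCL2A1 and BAD in 32 mares (y axis: log2 signal minus that of the array's 75th percentile, p75) against the neutrophil score, the monocyte score for both BAK1 and BCL2A1, and log2 of the array's 75th-percentile signal for BAD, progressive mares in green and brutal mares in purple. MCL1 (r = 0.68) and BAK1 (r = 0.71) climb with the scores and BCL2A1 falls (r = -0.49). The scaled level of BAD falls with the array brightness that is subtracted to give it (r = -0.79).

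The genes most like each member were found among the 9391 tested genes by Pearson's r over the 32 mares after the means of each slide and group were removed. They are given as a description, chosen from many, with no test. For MCL1 they were PLEK (pleckstrin, a protein kinase C substrate of platelets and leukocytes, r = 0.92), RP2 (a GTPase-activating protein of ARL3, r = 0.91) and CHST11 (a chondroitin sulfotransferase, r = 0.88). The lowest r was -0.82 for CMAH, a sialic acid hydroxylase. For BAK1 they were KEAP1 (a sensor of oxidative stress, r = 0.83), TMBIM6 (a membrane protein of the endoplasmic reticulum that suppresses BAX in yeast, r = 0.82) and CFL1 (cofilin, which severs actin, r = 0.81), with HLTF, a DNA translocase, lowest at -0.78.

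BCL2A1 was most like PDCD5 (r = 0.80), SERPINI1 (neuroserpin, r = 0.80) and SLC25A14 (a mitochondrial carrier, r = 0.78), and least like VCL (vinculin, of cell adhesions, r = -0.75). BAD had the closest companions, BANF1 (a chromatin-binding protein of the nuclear envelope, r = 0.93), TIMM13 (a chaperone of mitochondrial import, r = 0.93) and MRPS34 (a mitochondrial ribosomal protein, r = 0.92), with ROCK1 (a kinase of the cytoskeleton) at -0.89. Array brightness, with which the scaled level of BAD had r = -0.79, was not regressed out of these values, and its part in them was not tested. BID was most like PSMB9 (an immunoproteasome subunit, r = 0.79), LAMTOR2 (a lysosomal scaffold, r = 0.74) and EXOSC3 (an RNA exosome subunit, r = 0.71), and least like XPC (a DNA damage sensor, r = -0.69).

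BCL2 and BCL2L11 had no close companion. The highest r of BCL2 was 0.67, with CLPTM1L and SHISA3 and, after them, EIF4ENIF1 (a carrier of the cap-binding protein eIF4E), and the lowest was -0.69 with IMPAD1, a Golgi phosphatase. For BCL2L11 the highest were ELAC2 (an enzyme of tRNA processing, r = 0.62), RAB13 (a small GTPase, r = 0.62) and JMJD4 (a hydroxylase, r = 0.61), and NDUFB5 (a respiratory complex I subunit) was lowest at -0.58.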

How the data were processed

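Intensity values per spot came from the deposited scanner files, which per the file headers is output of Agilent Feature Extraction 10.10.1.1 after background subtraction and spatial detrending. The deposited series table, used as an alternative, holds log2 values with 1 common distribution (column medians 8.397 to 8.399). Its normalisation tool was not given in the sources used here. The processed signal was turned to log2 minus the array's 75th percentile, without 1319 control spots and 2483 outlier spots, and no spot was saturated. That percentile was 339.5 to 646 units of intensity. On an array, 53.0 to 66.0% of spots stood well above background. A probe was tested when well above background on at least 8 arrays of a group, which left 26368. A member is shown by its brightest tested probe.

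Differences came from limma 3.58.1 in R 4.3.3 (lmFit, eBayes, group only), with Benjamini-Hochberg adjustment over all tested probes. The fit was tested on simulated data. Correlations used Python 3.11.15 with numpy 2.4.6 and pandas 2.3.3 and 100000 permutations, plots matplotlib 3.10.9. Mares are separate animals, and their number limits the precision. The members and lists were chosen with earlier results of these data known. Named genes are all members, the 2 genes of each list with the smallest p, and the 3 highest and 1 lowest r for each member. The alternatives changed background correction, scaling, filter, covariates, slides and probes.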

Additional observations from a re-analysis of the deposited data

How the results depend on the processing

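No probe was called under any alternative run, and each member's difference stayed short of the threshold (smallest adjusted p 0.932). Over members and alternatives, 120 values kept their direction and 6 did not. Many of the 120 could not have changed, so the count overstates how stable the directions are. Slide terms, array row terms, permutation within slides, the other probe filters and the other eBayes options return the same difference in this balanced design. So does the mean of all tested probes for BCL2 and BAD, which have a single probe. MCL1 turned to 0.0040 with quantile normalisation, 0.035 without slide 4 and 0.087 with neutrophil, T cell, erythroid and platelet scores as covariates. BCL2A1 turned to 0.0085 without slide 2, 0.044 as the mean of its probes and 0.022 with the 75th-percentile signal as a term. The cause was not tested. BCL2L11 stayed between 0.12 and 0.24, BAK1 between -0.15 and -0.02, BAD between -0.18 and -0.04, BCL2 between -0.18 and -0.05 and BID between 0.0082 and 0.09. The median difference lay between -0.09 and -0.0057 for the protecting members. For the killing members, taken as BID and BAD, it lay between -0.07 and 0.02. Pairs of members past the threshold numbered 4 with normexp and 1 each with quantile normalisation, the percentile over detected probes and the deposited table, against 2. Relations with marker scores numbered 13 with normexp and 5 each with quantile normalisation and the deposited table, against 8. They numbered 10 with slide and group means removed, with array row means removed too, and with the mean of a gene's probes. With normexp, BCL2 with BAD (r = 0.59) and BID with BAD (r = 0.52) also passed, and so did BCL2 and BAD with platelets, BAD and BID with erythroid, BID with dendritic and BCL2A1 with eosinophil and basophil scores. MCL1 with platelets passed with array row means removed, and BCL2A1 with platelets with the 75th-percentile signal regressed out. MCL1 with neutrophils, BAK1 with both scores and BCL2A1 with B cells passed under all 10 alternatives. Array row and array brightness were chosen after seeing the data. The plan named BAK1 and BCL2L11 among the killing members, so the median over BID and BAD alone is narrower than planned. No paired analysis was possible because the labels tie no progressive mare to any brutal mare.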

Other observations

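There were 5 probes tied to members only by their transcript accession. The BAK1 probe, 1171 bases from the shown one, tracked it (r = 0.87) and differed by -0.13 (SE 0.10, limma, adjusted p = 0.996). Of the 4 MCL1 probes, those 515 and 555 bases from the shown one had r of 0.88 and 0.72 with it and differed by -0.02 and 0.03. Those 1953 and 2019 bases away had r of only 0.33 and 0.36 with it and differed by 0.38 (SE 0.20, p = 0.0696) and 0.07. The probe 1953 bases away ran from 2.24 through a median of 3.11 to 5.38 after progressive weaning, and from 2.28 through 2.72 to 3.62 after brutal weaning. The highest mare was progressive 16, with the next progressive mare at 3.95, and without progressive 16 the difference was 0.24 (p = 0.136). It is the probe of any member with the largest difference, named after its values were seen, and it carries the same gene name only through the accession.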
